A study of Mus musculus with 8 samples.

Results

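Mitochondria take up calcium through the uniporter of the inner membrane, whose pore is formed by Mcu together with the essential subunit Smdt1 (EMRE). Micu2 and Micu3 are regulatory subunits that set the calcium concentration at which the pore opens, and Mcur1 is a factor of the inner membrane that is needed for assembly of the complex. Slc8b1 (NCLX) returns calcium in exchange for sodium, Letm1 is a cation exchanger of the inner membrane, and Vdac1 and Vdac2 are the channels of the outer membrane through which calcium and metabolites pass. Brown adipocytes are rich in mitochondria, and matrix calcium is known to act on their dehydrogenases. These 9 genes were chosen by name, with earlier results of these data known, from the 33641 genes in the deposited count data. All 9 passed the filter on low counts.

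RNA-seq of poly(A) RNA was done on brown adipose tissue (BAT) from C57BL/6 mice aged 28 weeks, to find genes that depend on HuR, the RNA binding protein encoded by Elavl1, in this tissue. In the HuR KO BAT group, floxed HuR alleles were recombined by a Cre transgene driven by the adiponectin promoter. By design this limits deletion to adipocytes and leaves HuR in other cells of the tissue, which was not measured here. The WT BAT group consisted of littermates, which in this colony could carry the Cre alone or floxed alleles without Cre; which of these the sequenced animals carried, and their sex and diet, were not given in the sources used here. The labels assign A7, A8 and A12 to WT BAT and A24, A25, A26, A29 plus A31 to HuR KO BAT. A legend in the paper gives these group sizes the other way round. Wherever values of all libraries are listed, they follow this order.

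The WT BAT libraries held 60622522, 51751002 and 50673814 estimated counts, and those labelled HuR KO BAT 18264754, 17558090, 67498055, 50893173 and 58727739. The libraries with the fewest counts, A24 and A25, thus both carried the HuR KO label. In CPM, counts scaled to the effective library size, Elavl1 was at 50.6, 48.0 and 49.2 in WT BAT, against 61.9, 47.2, 43.4, 61.3 and 61.2 in HuR KO BAT. The groups overlapped, so the Elavl1 total does not check the labels and each direction given here rests on them. The paper reports more genes lower than higher without HuR, with genes of calcium transport and of sarcoplasmic calcium cycling among the lower. Under the labels, 69 of the 105 genes (0.707% of 14851 tested) that edgeR's quasi-likelihood test called (adjusted p at most 0.05, fold change at least 1.5) were lower and 36 higher, but with library totals as the only scaling 25 were lower and 96 higher. All 24 skeletal muscle markers had log2 fold changes below 0 on either scale, so this difference, unlike the tally, does not turn with the scaling. It does turn with the libraries used. Without A7, A8 and A31, with A12 as the only WT library, the 9 markers still tested had a median log2 fold change of 1.03. The log2 fold change of Elavl1 was 0.16 (SE 0.162; Benjamini-Hochberg adjusted p = 0.667, edgeR quasi-likelihood), and between 0.11 and 0.46 over the alternatives. Positive values stand for higher expression in the libraries labelled HuR KO BAT.

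RNA of skeletal muscle was unequal between the libraries. The 24 contractile genes listed as muscle markers summed to 4349 CPM in A7, 2669 in A8 and 467 in A31, but to 56.4 in A12 and to between 26.1 and 48.5 in A24, A25, A26 and A29. Myh4, the most abundant of them, was at 1048 CPM in A7, 457 in A8 and 106 in A31, at 0.0209 in A12 and 0.113 in A24, and had no count in A25, A26 and A29. All 10 brown adipocyte markers were above 1 CPM in each library, with sums between 14530 and 31554 CPM. As whole tissue was sequenced, fewer cells of a type and less RNA per cell cannot be told apart.

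Mcur1, Micu3, Micu2 and Vdac1 were lower in each library labelled HuR KO BAT than in any labelled WT BAT, while the pore gene Mcu, Smdt1, both inner membrane exchangers and Vdac2 overlapped between the groups. None of the 9 genes passed the threshold of the study, an adjusted p of at most 0.05 with a fold change of at least 1.5, in edgeR's quasi-likelihood test. Of all 14851 genes tested, 105 (0.707%) passed. At an unadjusted p under 0.05 there were 4 of the 9 genes, against 17.0% of all genes. The groups did not overlap for the same 4 genes, all of them lower in HuR KO BAT, against 11.5% of all genes in either direction and 6.09% in that direction. As the 9 genes were chosen with earlier results of these data known, these shares are a description and no test of the set. Mcur1 came closest to the threshold, and it passed in DESeq2's Wald test, in edgeR's likelihood ratio test and when only genes with at least 10 counts in every library were tested. Micu3 also passed in DESeq2's Wald test, so that 2 of the 9 genes passed there, against 5.51% of all genes tested. In the likelihood ratio test 1 passed against 4.41%, and with the count minimum 1 against 1.03%.

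**Figure D1:**
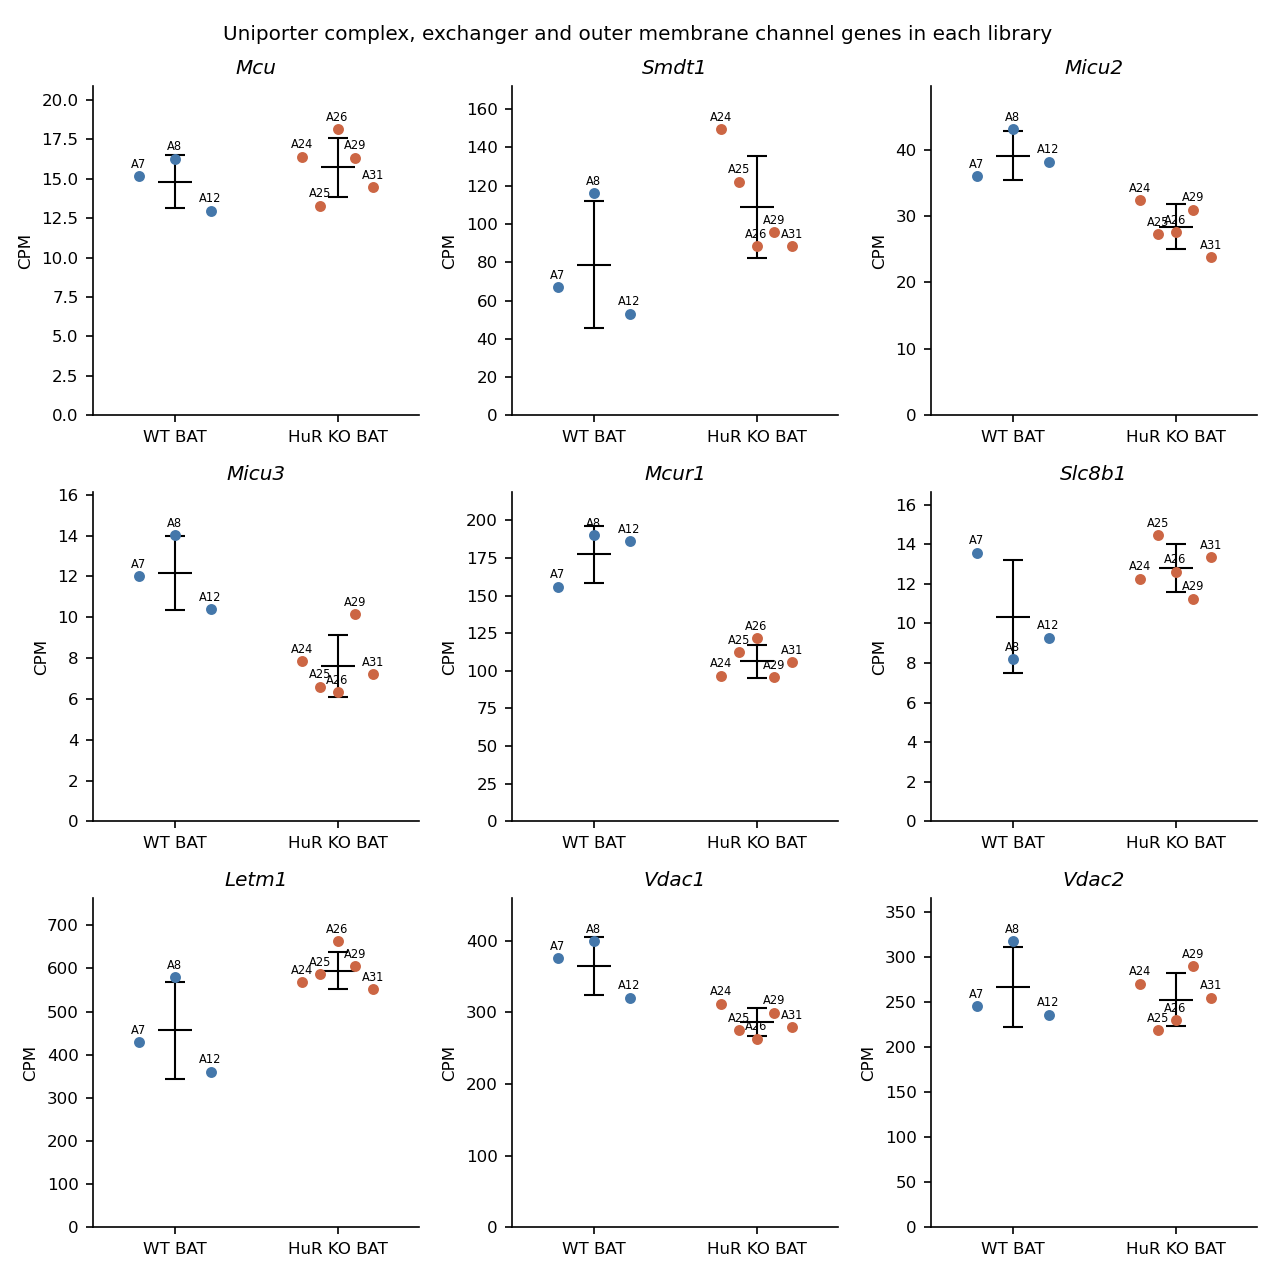
CPM of the 9 genes (y axis, from 0) in each library, with libraries labelled WT BAT in blue (n = 3) and HuR KO BAT in orange (n = 5); black bars give the mean and SD. Micu2, Micu3, Mcur1 and Vdac1 do not overlap between the groups on this scale, and Mcu does.

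Mcu, which forms the pore, was at 15.2, 16.3 and 13.0 CPM in WT BAT, and at 16.4, 13.3, 18.1, 16.3 and 14.4 CPM in the libraries labelled HuR KO BAT. Both groups covered nearly the same range, with a mean of 14.8 ± 1.68 (SD) over 3 libraries and 15.7 ± 1.89 (SD) over 5. Mcu had a log2 fold change of 0.09 (SE 0.154; adjusted p = 0.818, edgeR quasi-likelihood), a difference smaller than its error. It was 0.00171 without A12, 0.17 without A8, 0.31 without A7, A8 and A31, and 0.32 with library totals as the only scaling. Smdt1, which links the pore to its gatekeepers, ranged from 53.1 to 116 CPM in WT BAT and from 88.4 to 150 CPM in HuR KO BAT. A24 was the highest of all libraries, and A8 lay within the range of the HuR KO libraries. Smdt1 had a log2 fold change of 0.47 (SE 0.277; adjusted p = 0.427, edgeR quasi-likelihood). It was 0.86 without A8, where the groups did not overlap, and 0.25 without A12. Without A24 and A25 it was 0.20, and without the libraries with muscle RNA (A7, A8 and A31) it was 1.10.

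Mcur1 was at 156, 190.2 and 186 CPM in WT BAT, and at 96.8, 112, 121, 95.6 and 106 CPM in HuR KO BAT. The lowest WT library was above the highest HuR KO library. The mean was 177 ± 18.8 (SD) over 3 libraries and 106 ± 10.9 (SD) over 5, a log2 fold change of −0.74 (SE 0.146; adjusted p = 0.0532, edgeR quasi-likelihood with Benjamini-Hochberg adjustment), which is 1.67-fold lower in HuR KO BAT. The adjusted p of Mcur1 over the alternatives lay between 0.000100 and 0.301.

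Micu2, a gatekeeper of the pore, was at 36.0, 43.1 and 38.2 CPM in WT BAT, and at 32.4, 27.2, 27.5, 30.97 and 23.8 CPM in HuR KO BAT. Each of the latter was below the lowest WT library. For Micu2 the log2 fold change was −0.46 (SE 0.145; adjusted p = 0.141, edgeR quasi-likelihood). Micu3, a related gatekeeper best known from nervous tissue, was at 12.01, 14.0 and 10.4 CPM in WT BAT, and at 7.84, 6.59, 6.33, 10.1 and 7.20 CPM in HuR KO BAT. A12 and A29 were nearly equal, so that the groups of Micu3 were separated by a narrow gap. The log2 fold change of Micu3 was −0.67 (SE 0.193; adjusted p = 0.120, edgeR quasi-likelihood), with between 139 and 742 estimated counts per library.

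Slc8b1 was between 8.18 and 13.6 CPM in WT BAT and between 11.3 and 14.5 in HuR KO BAT. Within WT BAT, A7 stood above A8 and A12. Its log2 fold change was 0.30 (SE 0.189; adjusted p = 0.454, edgeR quasi-likelihood), which was 0.55 without A7, 0.16 without A8, 0.14 with the GC trend removed and 0.51 with library totals as the only scaling. Letm1 was at 428, 579.8 and 361 CPM in WT BAT and between 551 and 663 CPM in HuR KO BAT. A8 alone of the WT libraries lay in the range of the HuR KO libraries. Letm1 had a log2 fold change of 0.38 (SE 0.186; adjusted p = 0.335, edgeR quasi-likelihood), which was 0.60 without A8, 0.24 without A12, 0.75 without A7, A8 and A31, and 0.64 with library totals as the only scaling.

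Vdac1 was at 375, 399.6 and 320.5 CPM in WT BAT, and at 312, 276, 264, 299.8 and 279 CPM in HuR KO BAT. A12 and A24 were close, and the groups did not overlap. The log2 fold change of Vdac1 was −0.35 (SE 0.147; adjusted p = 0.259, edgeR quasi-likelihood). Vdac2 ranged from 236 to 318 CPM in WT BAT and from 219 to 290.0 CPM in HuR KO BAT. Its log2 fold change of −0.08 (SE 0.168; adjusted p = 0.857, edgeR quasi-likelihood) was above 0 with library totals as the only scaling, with a muscle score as covariate, without A7, A8 and A31, and without A8.

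In A12, a WT library, 22 of the 24 muscle markers were under 1 CPM, though Myl1 was at 52.4 CPM. A12 was itself above each HuR KO library for Mcur1, Micu2, Micu3 and Vdac1. Without A7, A8 and A31 the log2 fold change was −0.81 for Mcur1, −0.37 for Micu2, −0.43 for Micu3 and −0.16 for Vdac1, with A12 as the only WT library and its spread assumed to equal that of the others. Without A24 and A25 the values were −0.73, −0.52, −0.63 and −0.39. Scaling by library totals alone, in place of TMM, shifted the median of all genes by 0.23 on the log2 scale. On that scale the log2 fold change was −0.49 for Mcur1, −0.23 for Micu2, −0.43 for Micu3 and −0.12 for Vdac1. Mcur1 and Micu2 were then still lower without overlap, Micu3 and Vdac1 overlapped, and Mcu and Letm1 were higher in HuR KO BAT without overlap, against 1.45% of all genes lower and 11.9% higher without overlap. The part of the scaling, of muscle RNA and of the low totals in these differences was not tested.

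Ratios between genes within a library do not depend on how the libraries are scaled. For each Mcu count there were between 10.3 and 14.4 Mcur1 counts in the WT libraries and between 5.86 and 8.45 in the HuR KO libraries. The mean log2 ratio of Mcur1 to Mcu was 3.58 ± 0.243 (SD, n = 3) and 2.76 ± 0.223 (SD, n = 5), a difference of −0.82 (two-sided exact permutation p = 0.0357, the smallest that 3 against 5 libraries can give). Micu2 counts were between 2.37 and 2.95 per Mcu count in WT BAT and between 1.52 and 2.05 in HuR KO BAT, a difference in log2 ratio of −0.55 (exact permutation p = 0.0357). Micu3 counts were between 0.792 and 0.863 per Mcu count in WT BAT and between 0.349 and 0.621 in HuR KO BAT, a difference of −0.77 (exact permutation p = 0.0357). Of the 6 ratios to Mcu, which share its counts, these 3 were lower in HuR KO BAT without overlap, against 6.33% of the 14271 other genes counted in every library (9.33% in either direction). The p-values of the 7 ratios tested were not adjusted, and multiplied by 7 none would be under 0.05.

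The ratio of Smdt1 to Mcu overlapped between the groups, with a difference of 0.43 (exact permutation p = 0.250). Letm1 to Mcu differed by 0.32 (exact permutation p = 0.0714) and Slc8b1 to Mcu by 0.25 (exact permutation p = 0.357). Vdac2 counts were between 0.656 and 0.796 per Vdac1 count in WT BAT and between 0.794 and 0.967 in HuR KO BAT, a difference of 0.28 (exact permutation p = 0.0714), with A8 and A25 almost equal.

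**Figure D2:**
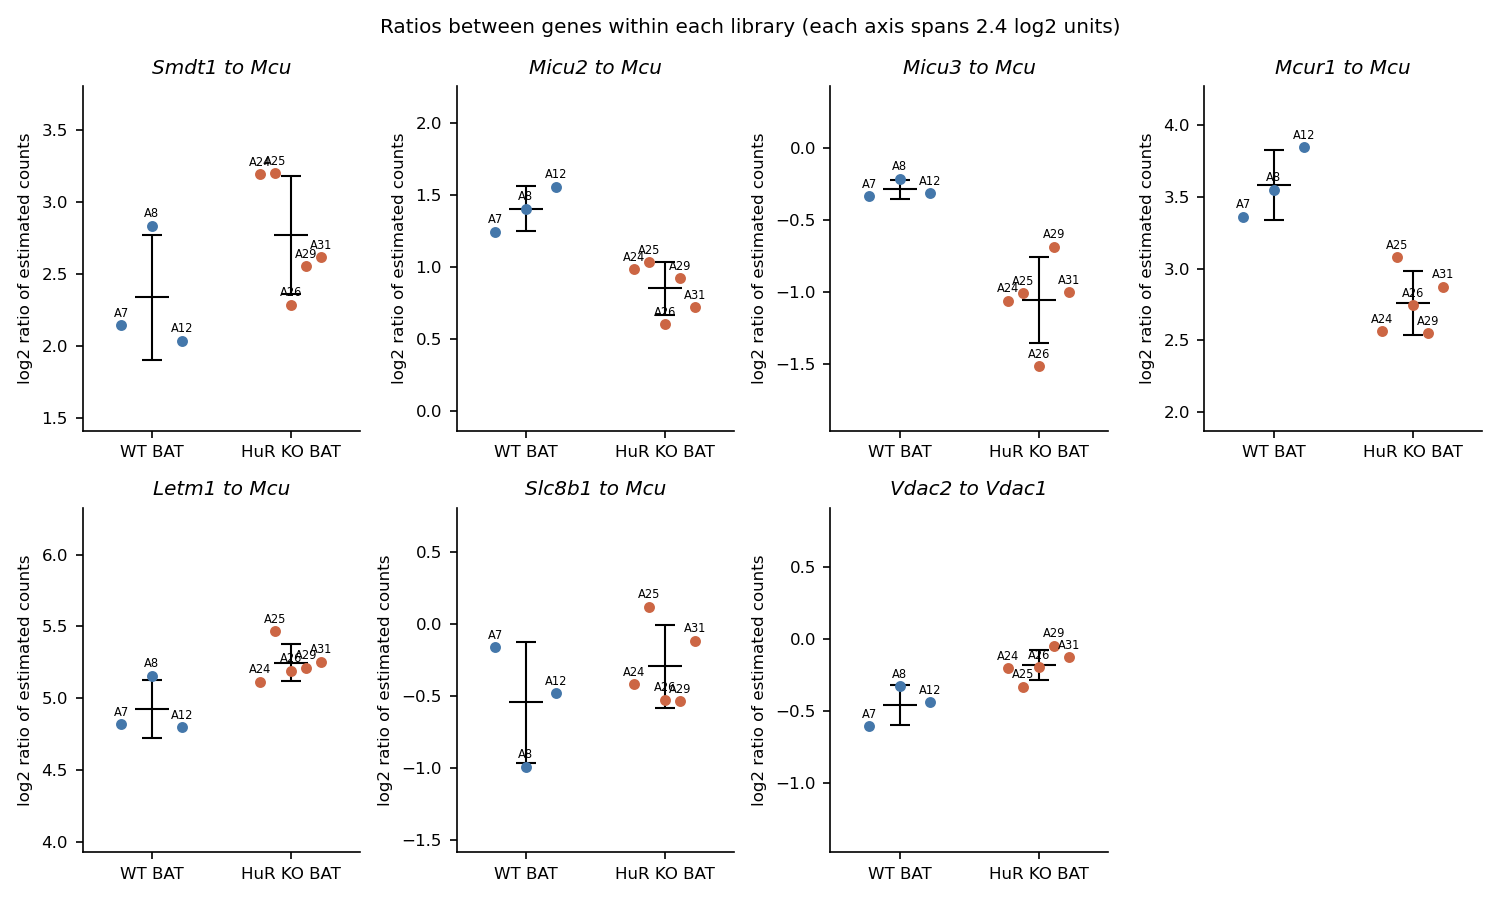
Log2 ratio of estimated counts of 2 genes in each library (y axis), for 3 WT BAT libraries in blue and 5 HuR KO BAT libraries in orange, with the mean and SD in black. The ratios of Micu2, Micu3 and Mcur1 to Mcu do not overlap between the groups, and those of Smdt1, Letm1 and Slc8b1 to Mcu and of Vdac2 to Vdac1 do.

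To set the genes beside each other, the CPM of each transcript was divided by its length and summed per gene. For genes with several transcripts these levels thus depend on how reads were divided between them. Over all libraries, Vdac1 averaged 177 ± 26.2 and Vdac2 171 ± 18.3 CPM per kilobase (SD, n = 8), Smdt1 143 ± 46.4 and Letm1 119 ± 28.7. These 4 overlapped and had no fixed order, as Vdac1 was above Vdac2 in the mean of WT BAT (202 and 176) and below it in that of HuR KO BAT (161 and 167), and Smdt1 was above both in A24 and A25. Before the division by length Vdac1 was above Vdac2 in each library, with between 0.656 and 0.967 Vdac2 counts per Vdac1 count. Mcur1 came next at 30.7 ± 8.98 CPM per kilobase, below Letm1 in each library and split by group, from 35.9 to 43.8 in WT BAT and from 22.03 to 28.0 in HuR KO BAT. Micu2 was at 13.9 ± 2.75, below Mcur1 in each library. Mcu (5.49 ± 0.593), Slc8b1 (4.39 ± 0.891) and Micu3 (3.87 ± 1.13) had the lowest levels of the 9 and overlapped, with Micu3 above Slc8b1 in the mean of WT BAT and below it in that of HuR KO BAT. Micu2 thus lay above Mcu in each library, and Micu3 was above Mcu only in A8, by a difference far smaller than the spread. Mcub, a pore subunit outside these 9 genes that lowers uptake, was at 0.475 ± 0.391 CPM per kilobase.

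Mcur1 and Micu2 each had 1 transcript in the files, so their gene totals do not depend on how reads were divided between transcripts. Mcur1 lies on chromosome 13 from 43538393 to 43560191, minus strand (GRCm38), with 9 exons. Micu2 lies on chromosome 14 from 57916261 to 57999262, minus strand, with 12 exons. Micu3 lies on chromosome 8 from 40307458 to 40386308, plus strand, and nearly all of its count was given to a pair of coding transcripts. The one with 8 exons, whose last exon runs from 40384609 to 40386308, averaged 9.20 ± 2.08 CPM in WT BAT (SD, n = 3) and 4.89 ± 1.29 in HuR KO BAT (SD, n = 5), without overlap. The one with 15 exons, which begins at 40307458 and ends at 40384662, was at 2.75 ± 0.531 and 2.48 ± 0.446 CPM, with overlap. The lower Micu3 total thus lay in the transcript with the long last exon, though the division between the pair is an estimate.

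Slc8b1 showed how uncertain such divisions can be, as its main transcript was given 0.0201 CPM in A24 and 9.86 in A29 while the gene total was similar. Vdac1 (chromosome 11, 52360860 to 52389397, plus strand) had 90.24% of its count on a transcript of 2022 bases, and its groups overlapped when this transcript stood for the gene. Vdac2 shared 18.09% of the 31-base stretches of its main transcript with other genes, all with a pseudogene that had 10 counts over the 8 libraries, and Vdac1 shared 10.14%. For Mcu, Smdt1, Micu2 and Mcur1 the share was 0. Vdac2 also overlaps Comtd1 on the opposite strand by 25 exon bases, and whether strand was used in counting is not given in the sources used here.

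HuR is known to bind AU- and U-rich stretches, many of them in 3′UTRs, where ATTTA in DNA letters is the core of AU-rich elements. The sense strand of the 3′UTR of each gene's main transcript was searched for ATTTA, overlapping matches included. Micu3 had 14 in 1700 bases, where the 2118 other 3′UTRs of like length (at least 0.8 times as long, and at most longer by the inverse of that) had a median of 2 and 86.07% had any. Only 1 of those 2118 had as many. These matches lie in the long last exon, downstream of the end of the transcript with 15 exons. Mcur1 had 6 in 3281 bases against a median of 5 (96.61% with any), Micu2 had 1 in 1007 bases against 1 (73.25% with any), and Vdac1 had 1 in 874 bases against 1 (68.39% with any). Among genes that overlapped, Mcu had 2 against 3, Vdac2 had 3 against 1, and Letm1, Slc8b1 and Smdt1 had none. Matches of TTTTT were also counted with overlap, so that a longer run of T gives several. They were most frequent in Mcu, with 40 against a median of 8, and next in Micu3, with 28 against 7. Binding of HuR was not measured here. The following sites of the genes that did not overlap show their sequence context, with the central ATTTA in capitals and any neighbouring match left in lower case, from the GENCODE M21 transcripts (GRCm38).
Micu3, chr8:40384943-40384967, plus strand: tatttagattATTTAtttattagaa
Micu3, chr8:40385100-40385124, plus strand: agtctctgttATTTAtcttgtattt
Micu3, chr8:40385504-40385528, plus strand: gttgatgtatATTTAtttaatagat
Mcur1, chr13:43541530-43541554, minus strand: catgcatattATTTAtttctgtgca
Micu2, chr14:57916695-57916719, minus strand: aggatgaagtATTTAcattgataca
Vdac1, chr11:52388571-52388595, plus strand: taccttcagaATTTAgtgtaccttt

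Promoters were taken from RefSeq (GRCm38.p6), 250 bases before to 50 bases after the start, and 6 of the 9 genes had an entry. Micu3, Slc8b1 and Vdac2 were the others. Both strands were searched for the GC box GGGCGG, the CCAAT box CCAAT, the estrogen-related receptor site AAGGTCA, the E box CACGTG and the palindromic NRF1 motif. Of all 32851 promoters 35.66% held GGGCGG, 37.41% CCAAT, 4.72% AAGGTCA, 7.15% CACGTG and 0.97% the NRF1 motif. Mcur1 and Micu2 each had 1 GGGCGG and no other match, and Mcu had 2 CCAAT and no GGGCGG. Smdt1 had 4 GGGCGG and Letm1 had 3 with 1 CCAAT. Vdac1 had no match at 1 start, and 3 GGGCGG with 1 AAGGTCA at the other. Whether matches go with the expression differences was not tested. These promoters are shown with the matches in capitals, as those of the pore and of 2 regulators; a match is only a description of the letters.
Mcur1, chr13:43560142-43560441, minus strand: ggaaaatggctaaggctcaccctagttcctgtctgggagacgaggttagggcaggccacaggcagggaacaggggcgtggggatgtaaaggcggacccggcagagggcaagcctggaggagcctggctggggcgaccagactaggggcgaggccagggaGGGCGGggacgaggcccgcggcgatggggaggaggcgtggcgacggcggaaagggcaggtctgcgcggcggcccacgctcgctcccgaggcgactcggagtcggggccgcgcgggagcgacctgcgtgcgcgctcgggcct
Micu2, chr14:57999213-57999512, minus strand: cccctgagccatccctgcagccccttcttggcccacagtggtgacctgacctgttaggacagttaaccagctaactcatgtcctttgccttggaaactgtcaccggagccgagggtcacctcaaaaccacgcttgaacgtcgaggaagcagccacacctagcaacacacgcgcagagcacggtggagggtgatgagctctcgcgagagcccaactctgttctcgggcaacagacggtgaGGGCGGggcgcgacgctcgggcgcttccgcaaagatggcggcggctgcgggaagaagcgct
Mcu, chr10:59616643-59616942, minus strand: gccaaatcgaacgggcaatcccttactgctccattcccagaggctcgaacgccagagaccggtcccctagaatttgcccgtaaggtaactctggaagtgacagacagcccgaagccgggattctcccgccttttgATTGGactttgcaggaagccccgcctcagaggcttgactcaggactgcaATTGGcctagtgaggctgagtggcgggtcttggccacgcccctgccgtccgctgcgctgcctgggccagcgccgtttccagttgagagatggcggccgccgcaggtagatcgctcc

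The other genes of the pathway were taken as 4 lists with 38 genes, of which 37 passed the filter on low counts. By edgeR's quasi-likelihood test none of the 37 passed the threshold. An unadjusted p under 0.05 was found for 4 and groups without overlap for 3, both smaller shares than the 17.0% and 11.5% of all genes. Their median log2 fold change was −0.13, that of the 9 genes was −0.08, and that of all genes tested was 0.00; with library totals as the only scaling these medians were 0.10, 0.17 and 0.23. DESeq2's Wald test and edgeR's likelihood ratio test each called 2 of them, Slc25a23 and Slc25a12, which is close to the 5.51% and 4.41% of all genes called.

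Among 9 further genes of the uniporter, its proteases and its partners, Slc25a23, a calcium-regulated carrier of ATP and phosphate that binds Mcu, was lower without overlap. It was at 175, 164 and 156 CPM in WT BAT, and at 101, 103, 118, 119 and 103 CPM in HuR KO BAT. Slc25a23 had a log2 fold change of −0.60 (SE 0.134; adjusted p = 0.0725, edgeR quasi-likelihood). Spg7, a subunit of the protease that trims excess Smdt1 protein, overlapped (−0.27, SE 0.151; adjusted p = 0.399, edgeR quasi-likelihood). Mcub was between 0.152 and 1.07 CPM in all libraries.

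Of 3 further genes of inner membrane exchange, Tmem65, a partner of the sodium calcium exchanger, was between 80.9 and 88.4 CPM in WT BAT and between 59.1 and 73.2 in HuR KO BAT, without overlap (log2 fold change −0.35, SE 0.131; adjusted p = 0.210, edgeR quasi-likelihood). For Tmem65 it was −0.21 with the GC trend removed and −0.13 with library totals as the only scaling. Ghitm overlapped, with −0.15 (SE 0.193; adjusted p = 0.744, edgeR quasi-likelihood), which was −0.29 without A7, −0.00945 without A8 and −0.00138 with the GC trend removed. With library totals as the only scaling Ghitm turned to 0.10. Of 11 genes of the outer membrane and its contacts with the endoplasmic reticulum, Rmdn3, which tethers the membranes, was between 171 and 248 CPM in WT BAT and between 249.9 and 302 in HuR KO BAT. This narrow separation gave a log2 fold change of 0.47 (SE 0.169; adjusted p = 0.193, edgeR quasi-likelihood). Itpr2, a calcium release channel of the endoplasmic reticulum, overlapped (−0.53, SE 0.288; adjusted p = 0.380, edgeR quasi-likelihood), with −0.31 without A7.

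Of 15 genes of proteins that respond to calcium in or at mitochondria, 14 were tested and none was without overlap. Slc25a12, the calcium-activated aspartate and glutamate carrier typical of muscle, was at 11.8 CPM in A7 and 7.87 in A8, but at 2.64 in A12, and at 2.47, 3.15, 2.997, 2.13 and 2.80 in HuR KO BAT. Its high values lay in the WT libraries with muscle RNA. The log2 fold change of Slc25a12 was −1.46 (SE 0.381; adjusted p = 0.0976, edgeR quasi-likelihood), and 0.02 without A7, A8 and A31. It passed the threshold without A12, at −1.86 (adjusted p = 0.00940, edgeR quasi-likelihood). Ppif, which encodes cyclophilin D of the permeability transition pore, was between 56.6 and 86.9 CPM in WT BAT and between 76.5 and 98.1 in HuR KO BAT (log2 fold change 0.38, SE 0.182; adjusted p = 0.330, edgeR quasi-likelihood; 0.60 without A8).

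**Figure D3:**
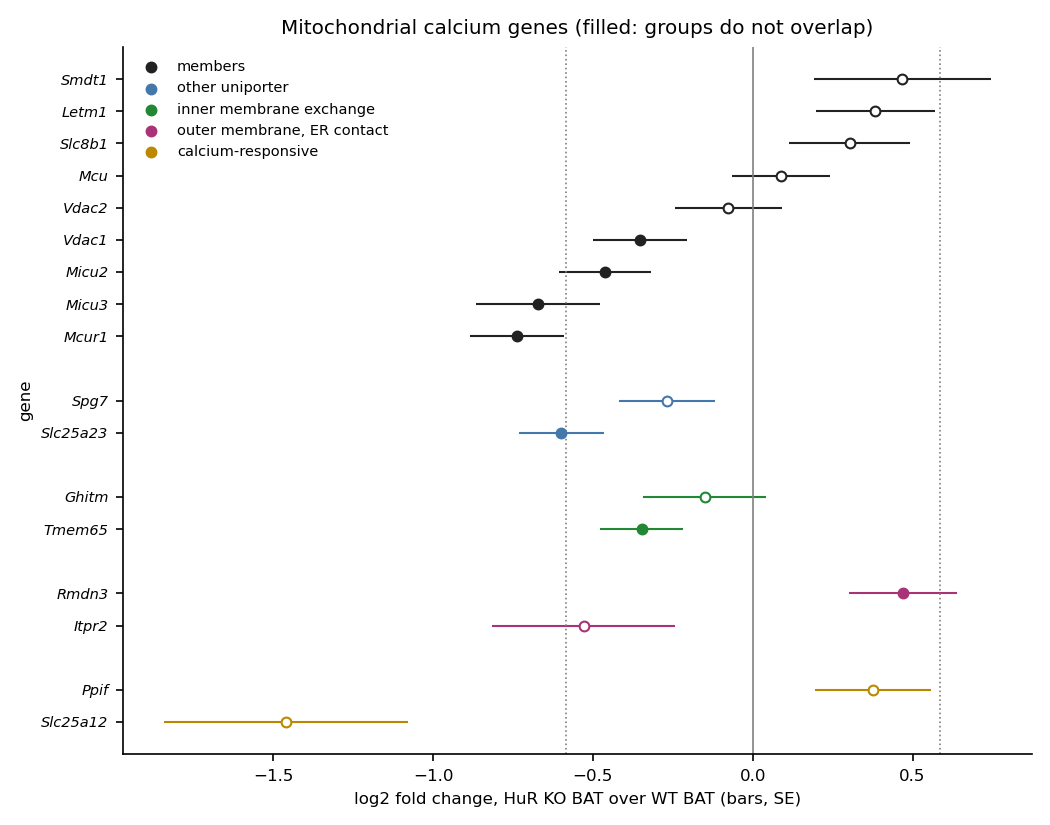
Log2 fold change of HuR KO BAT (n = 5) over WT BAT (n = 3) on the x axis, with SE as bars, for the 9 genes and the 8 others of the pathway with the lowest p in their lists, 1 per line and coloured by list; filled points mark groups that do not overlap and dotted lines a fold change of 1.5. Mcur1, Micu3 and Slc25a23 lie beyond the dotted line without overlap, and Slc25a12 lies farthest to the left.

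By the root mean square difference of centred log2 CPM over the 8 libraries, the genes most like Mcu were Prmt9 (0.0727), Pdhx (0.0742) and Ptcd3 (0.0752), against a median of 0.385 over all other genes tested. Their log2 fold changes were 0.10, 0.04 and 0.04, and all overlapped between the groups. Those most like Mcur1 were Tmem260 (0.0999), Usp15 (0.114) and Ppig (0.114), against a median of 0.526. All of them were lower in HuR KO BAT without overlap, which follows from their choice by likeness to Mcur1 over these libraries. Tmem260 averaged 19.5 ± 2.92 CPM in WT BAT (SD, n = 3) and 10.8 ± 1.39 in HuR KO BAT (SD, n = 5), its log2 fold change being −0.85 (SE 0.160; adjusted p = 0.0474, edgeR quasi-likelihood), which meets the threshold. Usp15 and Ppig had −0.62 and −0.71 and did not pass (adjusted p = 0.0637 and 0.0532, edgeR quasi-likelihood).

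Genes of mitochondrial content gave a further base for comparison. The 16 nuclear genes summed to between 15026 and 18877 CPM, none passed the threshold (edgeR quasi-likelihood), and their median log2 fold change was 0.04, with Atp5a1, the most abundant, at −0.04 (SE 0.180). Of these 16, 2 were lower in HuR KO BAT without overlap and 0 higher, against 6.09% and 5.37% of all genes. The 13 genes of the mitochondrial genome, led by mt-Co1, summed to 434263 CPM in A8, the highest, and 118968 in A25, the lowest, with a median of −0.36. Medians of the cell type markers were −4.58 for skeletal muscle, −0.08 for brown adipocytes (led by Fabp4), 0.26 for endothelial cells (Cdh5), −0.10 for mural cells (Rgs5), −0.43 for macrophages (Lyz2) and −0.35 for red blood cells (Hbb-bs). With library totals as the only scaling, the median turned to 0.17 for brown adipocytes and 0.14 for mural cells, and was 0.49 for endothelial cells, −0.25 for macrophages, −0.12 for red blood cells, 0.30 for the nuclear genes and −0.10 for the mitochondrial genome. The 2 white adipocyte markers went opposite ways, Lep with −1.22 and Retn with 0.99, and neither passed. Of these lists, only skeletal muscle had genes past the threshold, 2 of 24.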

How the data were processed

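The authors deposited an estimated count for every transcript (GRCm38, not normalized), with ambiguous reads shared out among transcripts before deposit. The methods name CLC Genomics Workbench for mapping, and the program behind the estimated counts is not given in the sources used here. Of 105129 transcripts, 99505 were in GENCODE M21 with their version.

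Counts were summed per gene symbol and rounded. Genes kept by filterByExpr were scaled by TMM (factors 0.763 to 1.20) and tested with edgeR's quasi-likelihood F-test, with Benjamini-Hochberg adjustment over 14851 genes; the SE is the log2 fold change divided by the root of F. CPM used TMM-scaled totals, and log2 CPM for likeness a prior count of 2. Single ratios were compared by two-sided exact permutation over 56 divisions of the libraries. R 4.3.3, edgeR 4.0.16, limma 3.58.1, DESeq2 1.42.0, Python 3.11.15, numpy 2.4.6, pandas 2.3.3, scipy 1.17.1 and matplotlib 3.10.9 were used. The fits were run on simulated counts with larger changes than those of the 9 genes and no difference in muscle RNA. Changes of the size seen here were thus not covered. Totals between 17558090 and 67498055 counts limit precision, and the quasi-likelihood p-values set the group difference against the spread between the libraries of these animals.

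Alternatives were 2 other scalings (DESeq2's size factors, library totals alone), 3 other tests (Wald in DESeq2, likelihood ratio in edgeR, and limma voom using quality weights), 2 other filters (none, or a minimum of 10 counts in all libraries), the highest transcript, no fold minimum, a muscle score as covariate, removal of the trend on GC content, and fits without A24 and A25, without A7, A8 and A31, and without each library. Named genes are the 9 genes, Elavl1, called pathway genes and the 2 with the lowest p of each list, the most abundant marker of each list, and the 3 genes most like Mcu and Mcur1; Mcub was added after its values were seen. Values of 1 other pathway gene and of 1 marker list are not reported here. The members and lists were chosen with earlier results of these data known.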

Additional observations from a re-analysis of the deposited data

Results flagged for a closer look

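Of 35 values checked over the 5 libraries labelled HuR KO BAT, 2 had a single library far from the others, and chance alone gives about 1 such in 20. The skeletal muscle markers summed to 467 CPM in A31, against 26.1 to 48.5 in the other 4 libraries. Spg7 was at 89.6 CPM in A25, against 66.2 to 71.9 in the other 4. None of the 9 uniporter, exchanger and channel genes and none of the 7 ratios had such a library.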

How the results depend on the processing

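Of the 9 genes, 0 passed the threshold under most alternatives, but 2 passed in DESeq2's Wald test, 1 in the likelihood ratio test and 1 with at least 10 counts in every library. Of the other pathway genes, 2 passed in each of the first 2 tests, and between 0 and 1 with a library left out (Slc25a12, without A12). The number of all genes past the threshold, 105 with 36 higher and 69 lower, was 818 in the Wald test, 655 in the likelihood ratio test, 58 with the GC trend removed, 16 with the highest transcript, 15 with the muscle score as covariate, 5 without A24 and A25 and 4 without A7, A8 and A31, and between 10 and 190 with a library left out. Library totals alone gave 96 higher and 25 lower. Groups did not overlap for 8 of the 9 genes without A7, A8 and A31, where 53.4% of all genes did not, for 3 with the highest transcript, against 9.82%, and for 4 to 6 with a library left out, against 13.2% to 26.9%.

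Over 21 alternatives, log2 fold changes lay between −0.82 and −0.49 for Mcur1, −0.54 and −0.23 for Micu2, −0.91 and −0.43 for Micu3, −0.44 and −0.12 for Vdac1, 0.00171 and 0.32 for Mcu, 0.20 and 1.10 for Smdt1, 0.14 and 0.55 for Slc8b1 and 0.24 and 0.75 for Letm1. Hence Mcu, Smdt1, Slc8b1 and Letm1 stayed above 0 and Micu2, Micu3, Mcur1 and Vdac1 below 0. Elavl1 was 0.46 with the highest transcript, 0.38 with library totals alone, 0.31 with the GC trend removed and 0.11 without A24. Vdac2 was 0.17 with library totals alone, 0.0171 with the muscle covariate, 0.0934 without A7, A8 and A31, 0.0738 without A8 and between −0.16 and 0.0738 with a library left out. With library totals alone Spg7 was −0.0360, Tmem65 −0.13, Slc25a23 −0.37, Rmdn3 0.72, Itpr2 −0.33 and Ppif 0.64. Ghitm was 0.10 with library totals alone and Slc25a12 0.0240 without A7, A8 and A31; the cause was not tested. Without A24 and A25, and without A7, A8 and A31, the log2 ratios to Mcu differed by −0.66 and −0.67 for Micu2, −0.78 and −0.75 for Micu3, and −0.86 and −1.11 for Mcur1. With a library left out they lay between −0.63 and −0.47, −0.86 and −0.65, and −0.93 and −0.69. For the ratios that overlapped, the same 2 removals gave 0.15 and 0.77 for Smdt1, 0.15 and 0.14 for Slc8b1, 0.29 and 0.45 for Letm1, and 0.33 and 0.24 for Vdac2 to Vdac1. With a library left out these lay between 0.28 and 0.68, 0.0268 and 0.44, 0.26 and 0.44, and 0.20 and 0.34. So few libraries cannot give an exact p under 0.05. Vdac2 to Vdac1 was 0.29 with the highest transcripts (exact permutation p = 0.0357). Slc8b1 to Mcu could not be given for the highest transcript, which had no counts in A24 after rounding.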

Other observations

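Of the 7 retained-intron transcripts of the 9 genes, 2 were higher in each library labelled HuR KO BAT and 5 overlapped; the 2 were chosen after their values were seen. Among those with a mean of at least 1 CPM it was 2 of 4, against 6.47% of 2626 such transcripts of all genes tested. That of Letm1 was at 2.33 ± 0.427 CPM (SD, n = 3) in WT BAT and 6.15 ± 1.30 CPM (SD, n = 5) in HuR KO BAT, and made up 0.87% of the count of Letm1. That of Vdac2 was at 2.46 ± 0.223 and 4.56 ± 0.831 CPM, and made up 1.46% of the count of Vdac2. Both are estimates from divided reads, and no test was run on them.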
